A study of Mus musculus with 6 samples.

Results

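The genes described here are 10 listed as plasma membrane ion channels, and RNA counts do not show where a protein lies. Of these, 9 encode potassium channels (Kcna2, Kcna3, Kcnj2, Kcnj10, Kcnn4, Kcnk6, Kcnk12, Kcnk13 and Kcnma1) and 1 a proton channel (Hvcn1). They were taken by symbol, and all 10 were found among the 55421 genes of the deposited count table. The table holds RNA sequencing counts of primary bone marrow-derived macrophages, which are grown from mouse marrow in culture. Of the 6 libraries, 3 came from cells with floxed Tmem175 alleles and Lyz2-Cre (Tmem175flox/flox Lyz2-Cre+/-, genotype label Tmem175-/-), called knockout here, and 3 from wild type (WT) cells. Age, sex, strain and treatment of the mice are not in the labels, and the wells of a group are not tied to separate animals, so the p-values measure a spread that may be technical. Lyz2-Cre is active in myeloid cells, and no library here has Cre or the floxed alleles alone, so loss of Tmem175 and effects of Cre or of background cannot be told apart. The comparison asks what differs in the macrophage transcriptome when TMEM175 is lost, a lysosomal channel that conducts potassium and protons.

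Potassium channels let potassium leave or enter the cell and set the membrane potential, which in turn sets the drive for calcium entry. In macrophages they are known for their part in activation, in cell volume and migration, and in the potassium efflux that triggers the NLRP3 inflammasome. The voltage-gated proton channel encoded by Hvcn1 carries protons out of the cytosol and balances the charge moved by the phagocyte NADPH oxidase. Potassium channels share a short selectivity filter in the pore, made of a threonine, a valine or isoleucine, a glycine, a tyrosine or phenylalanine, and a second glycine. The proton channel has no such pore, and protons pass through its voltage sensor, where a helix called S4 carries spaced arginines.

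The coding sequence at these sites is shown for 9 members because it is what makes the members potassium or proton channels. The stretches are from GENCODE M21 transcripts on GRCm38, given 5′ to 3′ on the coding strand. Capitals mark the codons of the selectivity filter in the potassium channels. In Hvcn1 they mark the codons of an arginine, any residue, tryptophan, arginine, any pair of residues, arginine, any pair of residues and asparagine.
Kcna2, chr3:107105209-107105253, plus strand: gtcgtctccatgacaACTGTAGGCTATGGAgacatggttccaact
Kcna3, chr3:107037596-107037640, plus strand: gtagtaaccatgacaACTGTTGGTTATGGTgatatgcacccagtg
Kcnj2, chr11:111072192-111072236, plus strand: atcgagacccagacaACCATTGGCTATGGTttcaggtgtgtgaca
Kcnn4, chr7:24379183-24379227, plus strand: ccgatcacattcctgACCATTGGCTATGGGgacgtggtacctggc
Kcnma1, chr14:23528398-23528442, minus strand: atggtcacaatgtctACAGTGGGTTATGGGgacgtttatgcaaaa
Kcnk12, chr17:87746438-87746482, minus strand: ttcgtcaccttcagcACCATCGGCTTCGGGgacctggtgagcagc
Kcnk13, chr12:100061361-100061405, plus strand: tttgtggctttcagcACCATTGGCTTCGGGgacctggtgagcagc
Kcnk6, chr7:29225845-29232183, minus strand, spliced across an intron: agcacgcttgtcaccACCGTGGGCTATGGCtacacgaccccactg
Hvcn1, chr5:122238592-122240227, plus strand, spliced across an intron: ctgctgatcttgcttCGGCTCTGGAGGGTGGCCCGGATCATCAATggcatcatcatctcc
All 9 potassium channels matched the filter pattern at least once and Hvcn1 did not, while Hvcn1 alone of the 10 matched the arginine pattern. The members were taken by symbols that name such channels, and the arginine pattern is that of the proton channel. These matches therefore describe the members and test nothing. A member without the arginine pattern may still carry spaced arginines. Over all coding genes with a complete longest coding sequence, 81 of 21562 (0.376%) matched the filter pattern and 4 (0.0186%) the arginine pattern. Of 77 potassium channel pore genes listed for this comparison, 57 matched the filter pattern. Tandem-pore subunits carry a pair of pore loops; Kcnk12 and Kcnk13 each matched at 2 places, of which the second is shown, and Kcnk6 at 1. Between these windows of Kcnk12 and Kcnk13, 40 of 45 bases were identical, against 32 of 45 between Kcna2 and Kcna3.

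Libraries held 25979430 to 31542741 counts in the knockout group and 24179548 to 25916709 in the WT group. Tmem175, the targeted gene, averaged 13.2 ± 1.13 CPM in knockout and 33.2 ± 0.318 CPM in WT libraries (SD, n = 3 each), and Lyz2, which carries the Cre insertion, averaged 24326 ± 1578 and 45178 ± 4163 CPM. CPM relates a gene's count to its library's total, here after TMM scaling, which corrects for unequal library composition. The macrophage markers Adgre1, Cd68, Csf1r, Mertk, Itgam, Fcgr1 and Cd14 were present in every library at 139 CPM or more on average in knockout libraries. Along the leading axis of a principal component analysis (29.3% of variance), WT replicates 1 and 2 lay at one end and WT replicate 3 among the knockout libraries, while along the next axis (20.6%) all knockout libraries lay below all WT libraries. In edgeR's quasi-likelihood test over 13588 genes, 2 genes were higher and 12 lower in knockout at an adjusted p under 0.05, which is 0.103% of the genes tested. None of the 10 channels was among them. At an unadjusted p under 0.05 there were 3 of the 9 tested, all lower in knockout, against 3.04% of all genes in that direction. That contrast is no test of the list, since the members were chosen with earlier results of these data known.

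The bone marrow-derived macrophages expressed 6 of the 10 channels at a mean of at least 10 TPM, a unit that divides counts by exon length before scaling and so allows genes to be compared. These were Hvcn1, Kcnk6, Kcnk13, Kcnj2, Kcnn4 and Kcnj10. Kcna3, Kcnk12 and Kcna2 were low, and Kcnma1 had no count in any library. TPM sums to the same total in each library and Lyz2 held less of it in knockout, which raises the TPM of other genes there. Genotypes are therefore compared below in CPM, except in the shares of summed potassium channel TPM, and genes are compared in TPM.

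Hvcn1 was the most abundant of the 10, at a mean of 101 ± 5.95 TPM over the 6 libraries (SD). Its lowest library, at 95.2 TPM, lay above the highest library of the next gene, Kcnk6, at 75.2 TPM. Kcnk6 averaged 69.2 ± 4.04 TPM and also stood clear of Kcnk13, at 55.2 ± 3.52 TPM. The next levels were close to each other. The ranges of Kcnk13 and Kcnj2 (47.6 ± 2.93 TPM) overlapped, although Kcnk13 was the higher in each of the 6 libraries. Kcnj2 and Kcnn4 (45.9 ± 3.60 TPM) did not differ beyond their spread, with Kcnj2 the higher in 4 of 6 libraries. A gap of 3.19 times separated Kcnn4 from Kcnj10, at 14.4 ± 1.85 TPM. Kcna3 (4.22 ± 0.828 TPM), Kcnk12 (1.81 ± 0.453 TPM) and Kcna2 (0.514 ± 0.279 TPM) followed without overlap between neighbours. The order depended in part on the length used. With the median length of the protein-coding transcripts, Hvcn1 stood at 168 TPM, Kcnn4 was second at 56.6 TPM ahead of Kcnk6 at 33.0 TPM, Kcnk13 stood at 26.2 TPM, Kcnj2 at 22.3 TPM, and Kcnj10, at 6.76 TPM, was under 10 TPM.

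**Figure D1:**
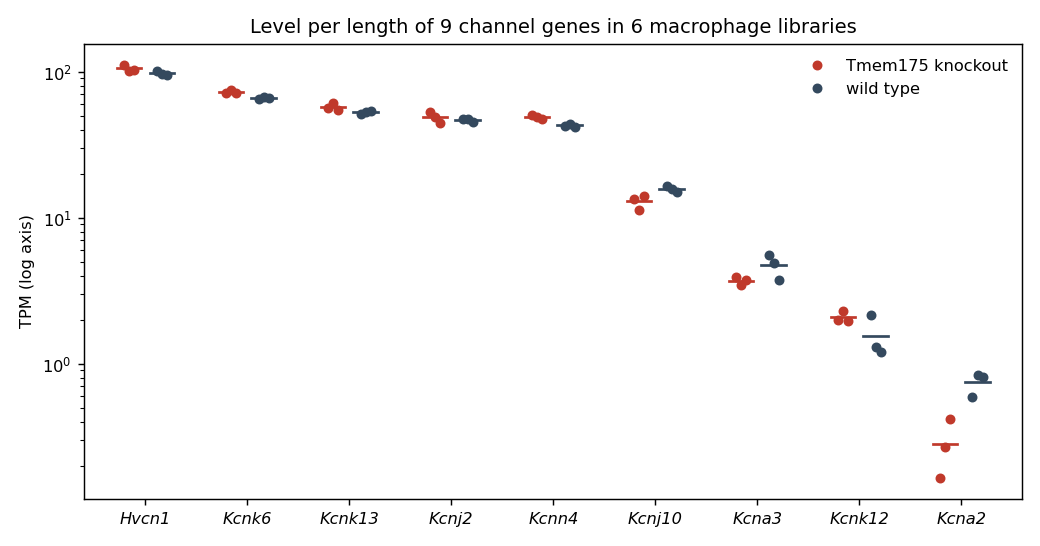
TPM on a log axis for the 9 channel genes with counts, in the 3 knockout (red, left) and 3 wild type (dark, right) libraries, with a line at each group's mean. Hvcn1 lies highest near 101 TPM, 5 potassium channels lie between 11.4 and 75.2 TPM, and Kcna2 lies lowest, under 1 TPM; Kcnma1 had no counts and is not drawn.

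Few channel genes made up most potassium channel transcripts. Over the 77 pore genes of the potassium channel families, the tandem-pore, inward rectifier and calcium-activated genes Kcnk6, Kcnk13, Kcnj2, Kcnn4 and Kcnj10 together held 93.8% ± 0.315 of summed TPM in knockout and 92.4% ± 1.09 in WT libraries (SD, n = 3 each). By class, the 3 tandem-pore members held 51.5% ± 1.78 in knockout and 49.6% ± 1.31 in WT libraries. The inward rectifiers Kcnj2 and Kcnj10 held 24.0% ± 1.18 in knockout and 25.7% ± 0.538 in WT. Kcnn4, the calcium-activated member with counts, held 19.1% ± 0.293 in knockout and 17.7% ± 0.120 in WT. The voltage-gated genes Kcna2 and Kcna3 held 1.55% ± 0.125 in knockout and 2.26% ± 0.306 in WT. The shares by class depended on the gene length used, an alternative chosen after seeing the data. With the median length of protein-coding transcripts, Kcnn4 held 37.1% ± 0.571 in knockout and 34.8% ± 0.246 in WT, and the tandem-pore members 38.6% ± 1.34 in knockout and 37.7% ± 1.05 in WT libraries. Such shares sum to a whole, so a lower share of one gene raises the others.

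The voltage-gated channels Kcna2 and Kcna3 gave the lowest fold changes of the members tested with all 6 libraries, and neither passed. The second place changed with the processing: with 1 surrogate variable Kcna3 stood at -0.33 and Kcnj10 at -0.34 on the log2 scale, and without WT replicate 1 at -0.33 and -0.35. Kcna2 (ENSMUSG00000040724, chromosome 3, 107101146 to 107115005) encodes a Shaker-type delayed rectifier subunit, best known from axons and able to join Kcna3 in one tetramer. Its counts were 20, 30 and 42 in knockout libraries, against 58, 82 and 85 in WT libraries. On the CPM scale these are 0.635, 0.999 and 1.60 in knockout and 2.42, 3.37 and 3.38 in WT. All 3 knockout libraries lay below all 3 WT libraries, with knockout replicate 1 the lowest. This gave a log2 fold change of -1.52 (SE 0.31, 95% interval -2.22 to -0.83), or 0.348 of the WT level, which did not pass over all genes (unadjusted p = 0.00070, adjusted p = 0.281, edgeR). By rank of p it was number 33 of 13588. The call depended on the method: Kcna2 was called lower in knockout by the DESeq2 Wald test (adjusted p = 0.00212), with a surrogate variable as a term (0.0201) and without a count filter (1.97e-05), and in none of the other 14 alternatives that tested it. Its sign was negative in all 17, with log2 fold changes from -1.90 without knockout replicate 3 to -1.24 without knockout replicate 1.

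Kcna3 (ENSMUSG00000047959, chromosome 3, 107036169 to 107038070) encodes the voltage-gated channel that dominates T cell potassium currents and is also found in macrophages. Its values were 2.44, 2.03 and 2.28 CPM in knockout, against 3.63, 3.16 and 2.50 CPM in WT libraries, from counts of 60 to 77 and 63 to 87. The groups did not overlap, but WT replicate 3 lay only just above knockout replicate 1. In edgeR's test the log2 fold change was -0.46 (SE 0.19, 95% interval -0.89 to -0.03, adjusted p = 0.908), and no alternative called it. The antisense gene Gm27008, which spans Kcna3 on the opposite strand, had a count of 0 in every library. The strand setting of the counts is not stated, so the counts of Kcna3 may leave out reads that fall on both genes.

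Markers of other blood cells had fold changes in both directions, and none was called by edgeR. Of 8 markers of T, B and NK cells, 4 passed the count filter, all with negative log2 fold changes; the summed level of the 8 was 3.10 to 4.49 CPM in knockout and 5.53 to 6.82 CPM in WT libraries. The lower sum lay in B cell genes, with Ms4a1 at 0.712 ± 0.284 CPM in knockout and 1.81 ± 0.343 CPM in WT and Cd79a at 1.04 CPM in knockout and 2.08 CPM in WT on average. The T cell genes were too low to be tested and not lower as a group: Cd8a averaged 0.254 CPM in knockout and 0.122 CPM in WT, and Cd3e had counts of 9, 3 and 0 in knockout and 2, 4 and 0 in WT. None of the 8 was at 0 in all libraries.

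The 7 mast cell and basophil markers summed to 12.6 to 18.9 CPM in knockout and 19.0 to 26.8 CPM in WT, ranges that nearly touch. Of the 5 tested, 4 were negative, each with all knockout values below all WT values, against 5.06% of all genes tested. The median log2 fold change of the 5 was -0.96. Kit went the other way, with all knockout values the higher, against 5.73% of all genes tested. It averaged 6.92 CPM in knockout and 5.88 CPM in WT (log2 fold change 0.23). Of the 8 neutrophil markers 6 were positive and 2 negative, with log2 fold changes from -0.76 to 0.70. All knockout values lay below the WT values for 1 of the 8, against 5.06% of all genes tested, and above them for 2, against 5.73%. The sum of the 8 was 692 to 741 CPM in knockout and 400 to 592 CPM in WT. S100a8 averaged 174 CPM in knockout and 108 CPM in WT (edgeR adjusted p = 0.0521) and S100a9 averaged 294 CPM in knockout and 193 CPM in WT (adjusted p = 0.152), both without overlap. The 3 tested erythroid and megakaryocyte markers, Pf4, Itga2b and Gp9, were negative (median -0.50), with the list's sum at 61.5 to 86.1 CPM in knockout and 72.4 to 116 CPM in WT. The part of these cells in the values of the members was not tested, and in bulk libraries fewer cells of a type and less RNA per cell cannot be told apart.

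Of the inward rectifiers, Kcnj10 had all knockout values below the WT values and Kcnj2 did not, and neither passed. Kcnj2 (ENSMUSG00000041695, chromosome 11, 111066164 to 111076821) encodes the strong inward rectifier that holds the resting potential of macrophages. It stood at 93.2, 82.6 and 78.6 CPM in knockout and 88.6, 87.5 and 85.6 CPM in WT libraries, and the WT values lay within the knockout range. Knockout over WT, this was a log2 fold change of -0.04 (95% interval -0.18 to 0.10; SE 0.06, edgeR adjusted p = 0.979).

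Kcnj10 (ENSMUSG00000044708, chromosome 1, 172341210 to 172374085) encodes an inward rectifier best known for potassium buffering by glia and kidney epithelium. Its values were 23.7, 19.1 and 24.6 CPM in knockout libraries, against 30.8, 28.9 and 28.3 CPM in WT libraries. The groups did not overlap, and knockout replicate 2 was the lowest of the 6. On the log2 scale the fold change was -0.38 (SE 0.09, 95% interval -0.59 to -0.18), or 0.766 of the WT level, with an unadjusted p of 0.00202 and an adjusted p of 0.446 in edgeR's test. Without a count filter it was called (adjusted p = 0.00201), and in the other 17 alternatives it was not; without knockout replicate 2 the log2 fold change was -0.28. The glial gene Aqp4 and the neuronal gene Snap25 had a count of 0 in every library, and the glial gene Gfap had counts of 1, 4 and 2 in knockout and 0 in each WT library. Mbp, the 1 gene of the 6 listed as neural markers that passed the count filter, had a log2 fold change of 0.05. The list summed to 104 to 112 CPM in knockout and 100 to 112 CPM in WT, nearly all of it Mbp. Which cells the Mbp RNA came from was not tested.

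Kcnn4 (ENSMUSG00000054342, chromosome 7, 24370263 to 24386690) encodes the intermediate-conductance calcium-activated channel, which opens when calmodulin bound to it takes up calcium. It stood at 84.3, 78.2 and 78.1 CPM in knockout and 74.9, 75.8 and 75.5 CPM in WT libraries. All knockout values lay above all WT values, by a small margin. Its log2 fold change was 0.09 (95% interval -0.02 to 0.19; SE 0.05, edgeR adjusted p = 0.943), positive in all 18 alternatives and called in none.

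Kcnma1 (ENSMUSG00000063142, chromosome 14, 23289431 to 24014491) encodes the large-conductance calcium-activated channel, which has also been described in lysosomal membranes. It had a count of 0 in each of the 3 knockout and 3 WT libraries. Over its 16976 bases of exon, 3 counts in a library would have been a level of 0.0172 to 0.0208 TPM in knockout and 0.0200 to 0.0215 TPM in WT, which is the limit that a count of 0 allows for counting error. The 4 annotated genes that overlap it on the opposite strand were also at 0. A count of 0 in all libraries was shared by 30 of the 68 other potassium channel pore genes, and no fold change is given.

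The tandem-pore channels, which carry background potassium currents, had small fold changes where they were abundant, and none passed. Kcnk6 (ENSMUSG00000046410, chromosome 7, 29221926 to 29232515) encodes a subunit described in mouse macrophages as a route of potassium efflux upstream of NLRP3. It stood at 95.7, 97.1 and 96.0 CPM in knockout and 92.4, 94.2 and 95.5 CPM in WT libraries, and its coefficient of variation over the 6 libraries, 1.72%, was the smallest of the 9 members with counts. Its knockout values lay above its WT values by less than 1 CPM at the nearest point, and the log2 fold change was 0.03 (95% interval -0.06 to 0.13; SE 0.04, edgeR adjusted p = 0.975).

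Kcnk13 (ENSMUSG00000045404, chromosome 12, 99964499 to 100062682) encodes a halothane-inhibited channel known from microglia, where its current shapes surveillance and interleukin-1β release. It stood at 57.5, 59.4 and 55.0 CPM in knockout and 54.6, 56.3 and 59.0 CPM in WT libraries, and the groups overlapped. EdgeR gave a log2 fold change of 0.02 (95% interval -0.10 to 0.13; SE 0.05, adjusted p = 0.981).

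Kcnk12 (ENSMUSG00000050138, chromosome 17, 87745801 to 87797994) encodes the close relative of Kcnk13, a subunit that gives little current alone and can assemble with it. Its values were 1.27, 1.40 and 1.26 CPM in knockout and 1.46, 0.863 and 0.835 CPM in WT libraries. The WT libraries lay on both sides of the knockout ones, with WT replicate 1 the highest of the 6. At counts of 21 to 42 the log2 fold change was 0.31 with a wide 95% interval of -0.31 to 0.94 (SE 0.28, edgeR adjusted p = 0.968). It was 0.62 without WT replicate 1, 0.19 without WT replicate 2 and 0.17 without WT replicate 3, and called in none of these.

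Hvcn1 (ENSMUSG00000064267, chromosome 5, 122206804 to 122242297) encodes the proton channel. It stood at 129, 112 and 119 CPM in knockout and 125, 116 and 119 CPM in WT libraries. Knockout replicate 1 was the highest and knockout replicate 2 the lowest, so the WT range lay inside the knockout range. Its log2 fold change was 0.00 (SE 0.06, edgeR adjusted p = 0.997), and the 95% interval of the fold ran from 0.914 to 1.10. Hvcn1 overlaps Tctn1 on the opposite strand by 4450 bases; Tctn1 had counts of 160 to 211 in knockout and 156 to 179 in WT, small beside the 3116 to 4079 and 2824 to 2989 of Hvcn1. It lies 13.6 Mb from Tmem175 on the same chromosome.

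**Figure D2:**
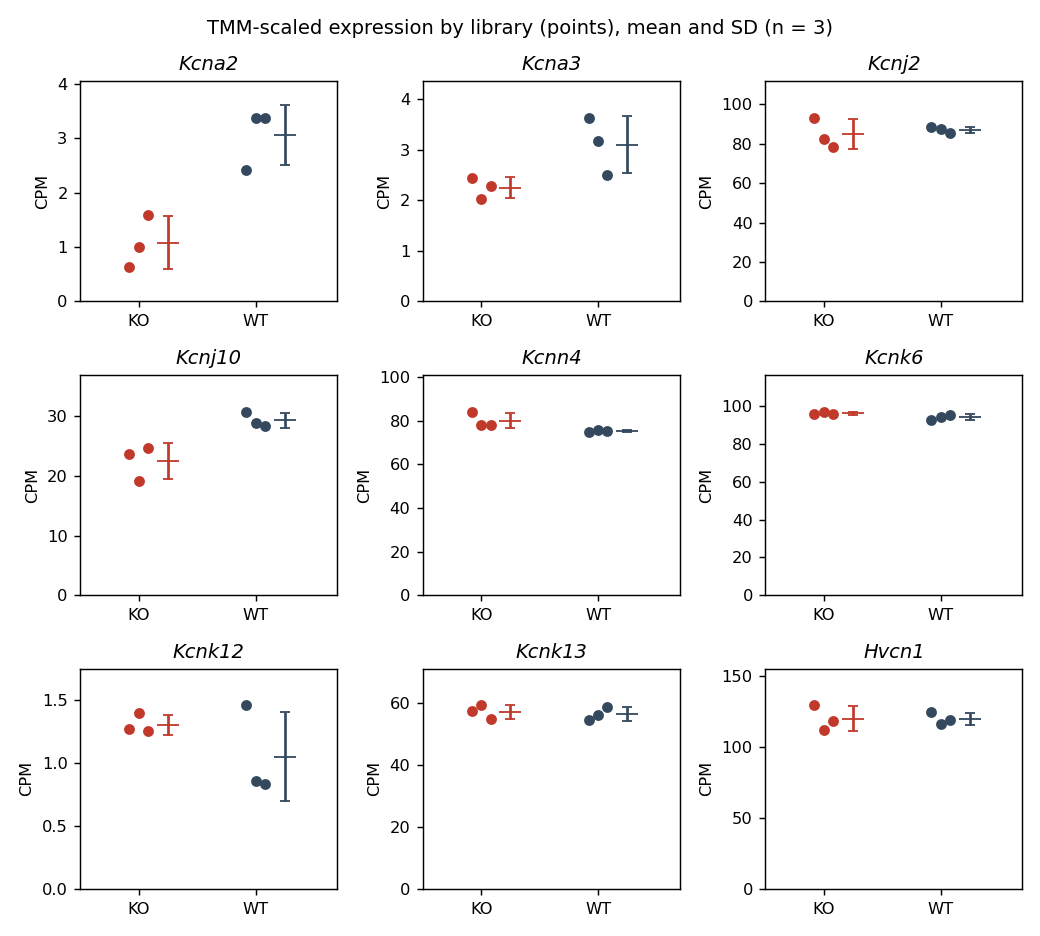
CPM after TMM scaling in each knockout (KO, left) and wild type (WT, right) library for the 9 channel genes that passed the count filter; points are libraries, and bars to their right are the mean and SD (n = 3). Each axis starts at 0. The knockout points of Kcna2, Kcna3 and Kcnj10 lie below the WT points without overlap, and those of Kcnn4 and Kcnk6 lie above by a small margin.

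Groups did not overlap for 3 of the 9 tested members with knockout lower, against 5.06% of all genes tested, and for 2 of 9 with knockout higher, against 5.73%. The members were chosen with earlier results of these data known, so these shares are no test of the list. The members' median log2 fold change was 0.00, with 5 positive and 4 negative, and the median over all genes tested was also 0.00. The 3 members with all knockout values below the WT values were among the 4 tested members with the lowest TPM, whereas the 5 most abundant, Hvcn1, Kcnk6, Kcnk13, Kcnj2 and Kcnn4, had log2 fold changes from -0.04 to 0.09.

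**Figure D3:**
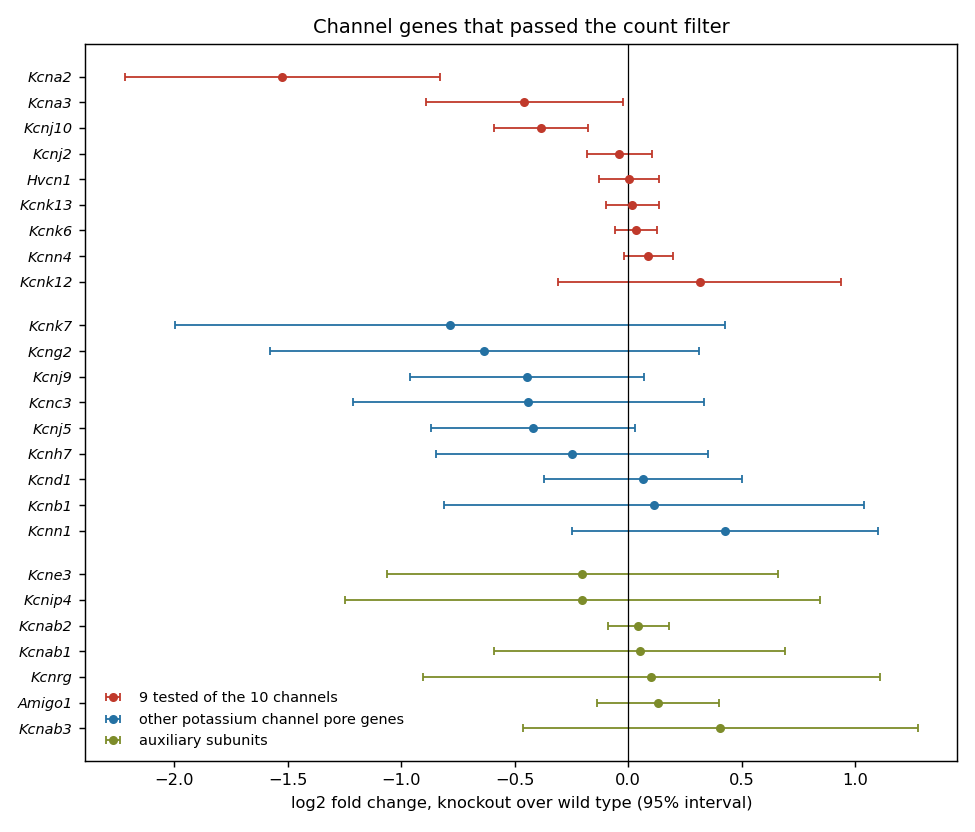
Log2 fold change, knockout over wild type, with 95% intervals not adjusted for the number of genes, for the channel genes that passed the count filter: 9 of the 10 members (red), 9 other potassium channel pore genes (blue) and 7 auxiliary subunits (green). The intervals of Kcna2, Kcna3 and Kcnj10 do not reach 0, those of all other genes drawn do, and none of the genes passed at an adjusted p under 0.05.

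The rest of the potassium channel families was sparse. Of 68 other pore genes, 9 passed the count filter, 3 with positive and 6 with negative log2 fold changes (median -0.42); none was called. That median was -0.22 with 1 surrogate variable as a term and -0.25 when only genes averaging 1 CPM or more were fitted. The highest was Kcnj5, a G protein-gated inward rectifier, at 4.21 ± 0.806 CPM in knockout and 5.66 ± 1.26 CPM in WT libraries (log2 fold change -0.42 with SE 0.20, edgeR adjusted p = 0.932). On the log2 scale the fold change of Kcnd1, a transient A-type channel, was 0.06 (SE 0.19), and that of Kcnj9, another G protein-gated rectifier, was -0.45 (SE 0.23). Kcnn1, a small-conductance calcium-activated channel, stood at 0.43 (SE 0.30) and Kcnh7, an ERG-type channel, at -0.25 (SE 0.27).

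Auxiliary subunits were led by Kcnab2, the cytosolic beta subunit of Shaker-type channels. It stood at 132 ± 6.70 CPM in knockout and 128 ± 8.58 CPM in WT libraries, with a log2 fold change of 0.04 (SE 0.06, edgeR adjusted p = 0.979). In TPM its mean of 70.2 was 16.6 times that of Kcna3 and 136 times that of Kcna2, the pore subunits it binds. Of 25 auxiliary genes listed, 24 matched and 7 passed the filter, 5 positive and 2 negative, with a median of 0.05 and none called. Amigo1, a partner of voltage-gated channels, stood at 0.13 (SE 0.12) and Kcnab1, another beta subunit, at 0.05 (SE 0.29).

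Genes that act with these channels were mostly abundant, and none passed. Of 16 regulators and calcium entry genes, 15 were tested, 9 positive and 6 negative, with a median of 0.00 and none called. Pik3c2b, a lipid kinase that activates the Kcnn4 channel, stood at a log2 fold change of -0.56 (SE 0.29), and Stim1, the calcium sensor of the endoplasmic reticulum, at -0.06 (SE 0.05). Nme2, a histidine kinase that also activates the Kcnn4 channel, had 0.35 (SE 0.28), from low counts of 23 to 34 in knockout and 16 to 22 in WT. The gene is overlapped on its own strand by the read-through gene Gm20390, which had a count of 0 in every library. Reads of the pair cannot be told apart, so the counts of Nme2 may leave out some of its reads. The 8 genes of the phagocyte NADPH oxidase list, which Hvcn1 works beside, had a median of 0.02 and none called; Rac1 stood at -0.07 (SE 0.05) and Ncf4 at 0.03 (SE 0.06). The 11 genes of potassium efflux and the NLRP3 inflammasome had a median of 0.01 and none called, with Panx1, a large-pore channel, at 0.15 (SE 0.10), and the cytokine genes Il18 and Il1b at -0.20 (SE 0.14) and -0.23 (SE 0.18).

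Of 23 genes listed for potassium, proton and related ion transport, 19 were tested, 8 positive and 11 negative, with a median of -0.01 and none called. Atp1b1, a beta subunit of the sodium pump, stood at 0.845 ± 0.176 CPM in knockout and 1.32 ± 0.279 CPM in WT libraries (log2 fold change -0.63 with SE 0.27, edgeR adjusted p = 0.908). Its counts of 19 to 33 and 28 to 40 were low. Lrrc8d, a subunit of the volume-regulated anion channel, stood at -0.09 (SE 0.05).

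**Figure D4:**
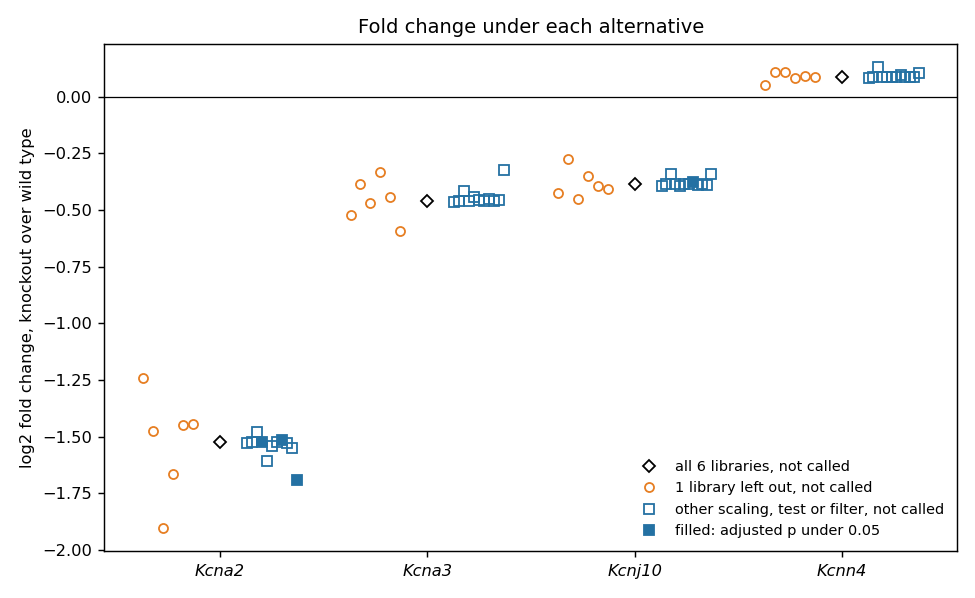
Log2 fold change, knockout over wild type, of Kcna2, Kcna3, Kcnj10 and Kcnn4 with all 6 libraries (black diamonds), with 1 library left out (orange circles) and under other scalings, tests, filters or terms (blue squares); filled symbols passed at an adjusted p under 0.05. Values of each gene stay on one side of 0, those of Kcna2 between -1.90 and -1.24, and 3 points of Kcna2 and 1 of Kcnj10 are filled.

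Over the 6 libraries, the genes with levels most like those of Hvcn1 on the log2 CPM scale were Cyb561d1 (Pearson r = 0.989), Nfya (0.988) and Gm49172 (0.988). Those most like Kcna2 were Smg5 (r = 0.990), Slc45a3 (0.989) and Prepl (0.986). Like Kcna2 they were lower in knockout, at log2 fold changes of -0.16, -2.23 and -0.17, so their r includes the difference between the groups. All r values given are the highest of 13587 correlations over 6 points that share library depth and composition, and are given as a description.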

How the data were processed

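The authors deposited unnormalized counts for Ensembl genes, 1 column per library. HISAT2, featureCounts and GRCm38 are named in the submitters' processing notes. Per the labels' protocols, RNA came from TRIzol lysates and went through a SMARTer mRNA library kit. Versions, annotation release and strand setting are not stated there, so reads of genes overlapping on opposite strands cannot be told apart. Symbols, positions and exon lengths came from GENCODE M21 (GRCm38); 55240 of 55421 IDs matched. TPM was computed from the counts and the summed length of all exons of a gene. Counts were scaled by TMM, filtered with filterByExpr (13588 genes left) and compared with edgeR 4.0.16 (R 4.3.3), by its quasi-likelihood test, two-sided, on genotype alone, with Benjamini-Hochberg adjustment over all genes tested and a threshold of 0.05; standard errors came from the F statistic, and intervals are 95%, unadjusted. The test was tested on simulated data.

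The members and gene lists were chosen with earlier results of these data known, so no list has a test of its own. Besides the members, Tmem175 and Lyz2, the text names up to 12 other channel or auxiliary genes whose mean was 1 CPM or more, the 3 genes with the smallest p of each partner list, the 3 genes most correlated with the most abundant member and with the member of smallest p, and the marker genes of other cells. A few genes and 1 sequence that this would name are not reported here. Tctn1, Gm20390, Cd3e, Ms4a1, Aqp4, Gfap, Snap25 and Mbp were singled out after their values were seen. Alternatives were other scalings, DESeq2 1.42.0, limma-voom (limma 3.58.1), other dispersions and filters, the replicate number as a block, 1 surrogate variable (sva 3.50.0), other gene lengths and leaving out each library. All pairs of libraries within a group differed beyond sampling noise (chi-square over degrees of freedom 3.66 to 17.6).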

Additional observations from a re-analysis of the deposited data

How the results depend on the processing

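No member passed in the main comparison, where 14 genes passed in all. The DESeq2 test gave 40 genes and 1 member, the fit without a count filter 151 genes and 2 members, the surrogate variable 82 genes and 1 member, and a filter at a mean of 10 CPM 5 genes and no member; Kcna2 was the member in each of the first 3 and Kcnj10 the second without a filter. Leaving out 1 library gave 4 to 12 genes (4 without knockout replicate 3, 5 without knockout replicate 2, 6 without WT replicate 2, 7 without WT replicate 1, 9 without WT replicate 3) and 0 members; the cause of these changes was not tested. Same-numbered libraries of the groups had correlations of their deviations of 0.057, -0.123 and 0.0388, and knockout replicate 1 correlated best with WT replicate 2 (0.129), so the numbers were not taken as pairs; the fit with the replicate block gave 17 genes and 0 members, with an adjusted p of 0.0975 for Kcna2 and 0.27 for Kcnj10.

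Members near 0 changed sign without passing: Kcnj2 was 0.0025 with library totals, 0.00038 with the surrogate variable and -0.11 to 0.012 with 1 library left out; Kcnk13 was -0.0035 with the surrogate variable and -0.0093 to 0.048 with 1 library left out; Hvcn1 was -0.0040 with upper-quartile scaling and -0.053 to 0.052 with 1 library left out. With library totals the median of all genes was 0.042. No gene of the partner lists passed under any alternative. The 3 members with under 5 TPM rest on counts of 20 to 87 per library, and the intervals cover counting error and the spread between these libraries only.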

Other observations

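Both low voltage-gated members are neighbours in the genome, a pair chosen after their values were seen. Kcna3 and Kcna2 lie 63.1 kb apart on chromosome 3 with 0 protein-coding genes between them, and both had knockout libraries below all WT libraries. Kcnj10 lies 11.9 kb from Kcnj9 on chromosome 1, also with 0 protein-coding genes between them. Kcnj9 stood at 1.87, 1.63 and 1.56 CPM in knockout and 2.71, 2.55 and 1.67 CPM in WT libraries, where WT replicate 3 lay within the knockout range. None of these 4 genes passed over all genes tested in edgeR's test, at adjusted p-values of 0.281 for Kcna2, 0.908 for Kcna3, 0.446 for Kcnj10 and 0.939 for Kcnj9.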
